A study of Homo sapiens with 4 samples.

Results

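The genes described here encode enzymes, membrane proteins and lipid carriers of the lysosome, the subunits of its proton pump, the transcription factor TFEB and the autophagy receptor SQSTM1. A list of 39 genes was chosen by name from known function, and 38 of them were found among the 43317 gene names of the array (CD68 was not analysed here). By role, 9 were membrane proteins, lipid carriers and regulators, 8 were peptidases, 8 were glycosidases, a sulfatase and a ceramidase, 5 were subunits of the V0 sector of the pump and 8 of its V1 sector. RNA came from HCT116 cells, an established colorectal cancer line, and A549 cells, an established lung cancer line. Each line was transfected with the microRNA miR-891b or with the negative control RNA NC1, with Dharmafect1 as the reagent in all 4 groups, and HCT116 was grown in McCoy's 5A medium and A549 in DMEM. Each group was 1 array, so differences within a line have no replicate check and no p-value is given for them. The series as a whole concerns PSAT1, an aminotransferase of serine synthesis, and extracellular vesicle release by cancer cells. The labels give no dose or time for the transfection.

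Lysosomes degrade proteins, glycans, lipids and RNA at an acid pH that is set by the vacuolar proton pump, whose V1 sector splits ATP in the cytosol and whose V0 sector carries protons across the membrane. Most soluble lysosomal enzymes reach the organelle through mannose 6-phosphate receptors, and heavily glycosylated membrane proteins such as LAMP1 and LAMP2 line it. TFEB and its relatives TFE3 and MITF activate many of these genes through E-boxes near the start site, and they are held in the cytosol by mTORC1 when nutrients are plentiful. Multivesicular endosomes either fuse with lysosomes or release their vesicles outside the cell, so the lysosome and vesicle release are often studied together.

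The sequence of the transfected microRNA is shown because its seed, bases 2 to 8 (capitals), is the stretch that pairs with target transcripts. The mature miR-891b is 22 bases long in RefSeq (GRCh38.p14, chrX:146001100-146001121, minus strand).
hsa-miR-891b: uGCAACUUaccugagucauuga
The match of bases 2 to 8, AAGTTGC, was in none of the 49 array probes of the members, and it was in 229 of all 58201 gene probes (0.393%), searched on the probe strand. The match of bases 2 to 7 followed by A, AGTTGCA, was in 0 member probes and 0.364% of all probes. The shorter AGTTGC, which both contain, was in 0 member probes and 1.18% of all probes. A probe covers only a short stretch of a transcript, and the rest of the members' transcripts was not searched.

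The promoter sequences are shown because CACGTG is the E-box core of the element that TFEB and its relatives bind. RefSeq windows of 250 bases before to 50 bases after the start (GRCh38.p14) were held for 26 members, and CACGTG, which reads the same on both strands, was in 9 of them (34.6%). Over 27305 genes with such a window, 8.77% held it. The longer TCACGTGA, which contains CACGTG, was in 6 members (23.1%) and in 1.18% of genes. LAMP1 held 6 copies of CACGTG, of which 5 lay wholly before the start, in chr13:113296989-113297238 on the plus strand, with CACGTG in capitals.
LAMP1: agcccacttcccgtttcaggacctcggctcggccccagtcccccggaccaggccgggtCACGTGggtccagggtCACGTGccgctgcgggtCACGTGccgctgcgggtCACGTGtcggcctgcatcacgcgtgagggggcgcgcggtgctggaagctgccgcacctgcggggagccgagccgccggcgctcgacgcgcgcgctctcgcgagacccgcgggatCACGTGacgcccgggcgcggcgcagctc
One window of 30 bases around a match is given for each of the other members that held it, since they include enzymes, the channel MCOLN1 and subunits of both pump sectors.
GAA (chr17:80101493-80101522, plus strand): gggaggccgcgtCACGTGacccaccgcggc
NEU1 (chr6:31862930-31862959, minus strand): atgctgcgtgatCACGTGggaggagatgag
CTSA (chr20:45891298-45891327, plus strand): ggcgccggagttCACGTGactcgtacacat
CTSD (chr11:1763957-1763986, minus strand): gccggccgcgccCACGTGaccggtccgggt
MCOLN1 (chr19:7522571-7522600, plus strand): accagaggcggtCACGTGaggggctctggg
ATP6V0B (chr1:43974891-43974920, plus strand): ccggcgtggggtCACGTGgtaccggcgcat
ATP6V0D1 (chr16:67481199-67481228, minus strand): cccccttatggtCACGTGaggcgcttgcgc
ATP6V1G1 (chr9:114587699-114587728, plus strand): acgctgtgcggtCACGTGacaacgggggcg
GAA, CTSA and MCOLN1 each held 2 copies, as did ATP6V0B, and NEU1, CTSD, ATP6V0D1 and ATP6V1G1 held 1. A match describes the letters of this window and is not a binding site.

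The level of a gene is the log2 processed signal of its brightest probe minus the 75th percentile of the array, and a change is the level with miR-891b minus that with NC1. A probe counted as measured in a comparison where it was well above background on both arrays. Both arrays of a line shared a slide and a scan, so the line cannot be told apart from the slide or the medium. The transfections were set against each other on 1 slide. Of the 58201 gene probes, between 44.7% and 50.3% were well above background per array. Outlier marks lay on 68 to 73 gene spots of 3 arrays and on 258 of A549 miR-891b, and on 0 spots of the members. The lines matched their labels in most fixed markers: CLDN7, CDX2, EPCAM and CLDN3 differed by -6.75 to -3.13 (A549 minus HCT116, log2, NC1 arrays), and AKR1B10, AKR1C1 and ALDH3A1 by 7.89 to 12.2. NAPSA, SFTPB, LGALS4 and GPA33 did not mark their lines, with SFTPB and GPA33 well above background on no array and LGALS4 so in A549 alone. AKR1B10 stood at -2.29 on HCT116 NC1 and at 2.18 on HCT116 miR-891b, and the part of this difference in the results was not tested. Of 8 leukocyte markers on the array, whose cells are rich in lysosomes, 3 or 4 were well above background on each array (PTPRC, CD14 and ITGAM on all 4), and of 8 fibroblast markers 2 in HCT116 and 4 or 5 in A549. Their part in the results was not tested.

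In A549, 33 of the 38 members were higher with miR-891b than with NC1, and the median member was 0.55 higher on the log2 scale. Among all 21257 genes measured in A549, 46.2% were above 0 and the median was -0.04. At 2-fold or more, 6 members were higher (15.8%), against 4.14% of all genes, and they were the autophagy receptor SQSTM1, the peptidases CTSA, CTSD and CTSZ, the galactosidase GLB1 and the sialidase NEU1. At 2-fold or more, 1 member was lower, the pump subunit ATP6V1C1 (2.63%), against 5.33% of all genes. At 1.5-fold or more, 18 members were higher (47.4%), against 11.5% of all genes, and the same single member was lower, against 14.7%. The 5 members at or below 0 were TFEB, CTSS, TPP1, ATP6V1C1 and ATP6V1D.

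In HCT116, the same genes lay on both sides of 0. Of 37 members measured, 19 were above 0 (51.4%), against 44.5% of all 19104 genes, and the median was 0.05 for the members and -0.04 for all genes. The galactosidase GLA was the single member at 2-fold or more higher (2.70%), against 1.16% of all genes, and 0 members were lower by that much, against 0.843%. At 1.5-fold or more, SQSTM1, CTSD and GLA were higher (8.11%), against 3.91% of all genes, and CTSH alone was lower (2.70%), against 5.65%. The change was larger in A549 than in HCT116 for 31 of the 37 members measured on all 4 arrays (83.8%), against 47.3% of 17996 genes. The exceptions were TFEB, TPP1, GLA, ATP6V1C1, ATP6V1D and ATP6V1E1. The difference between the lines has no test here, since each line gives 1 change per gene.

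**Figure D1:**
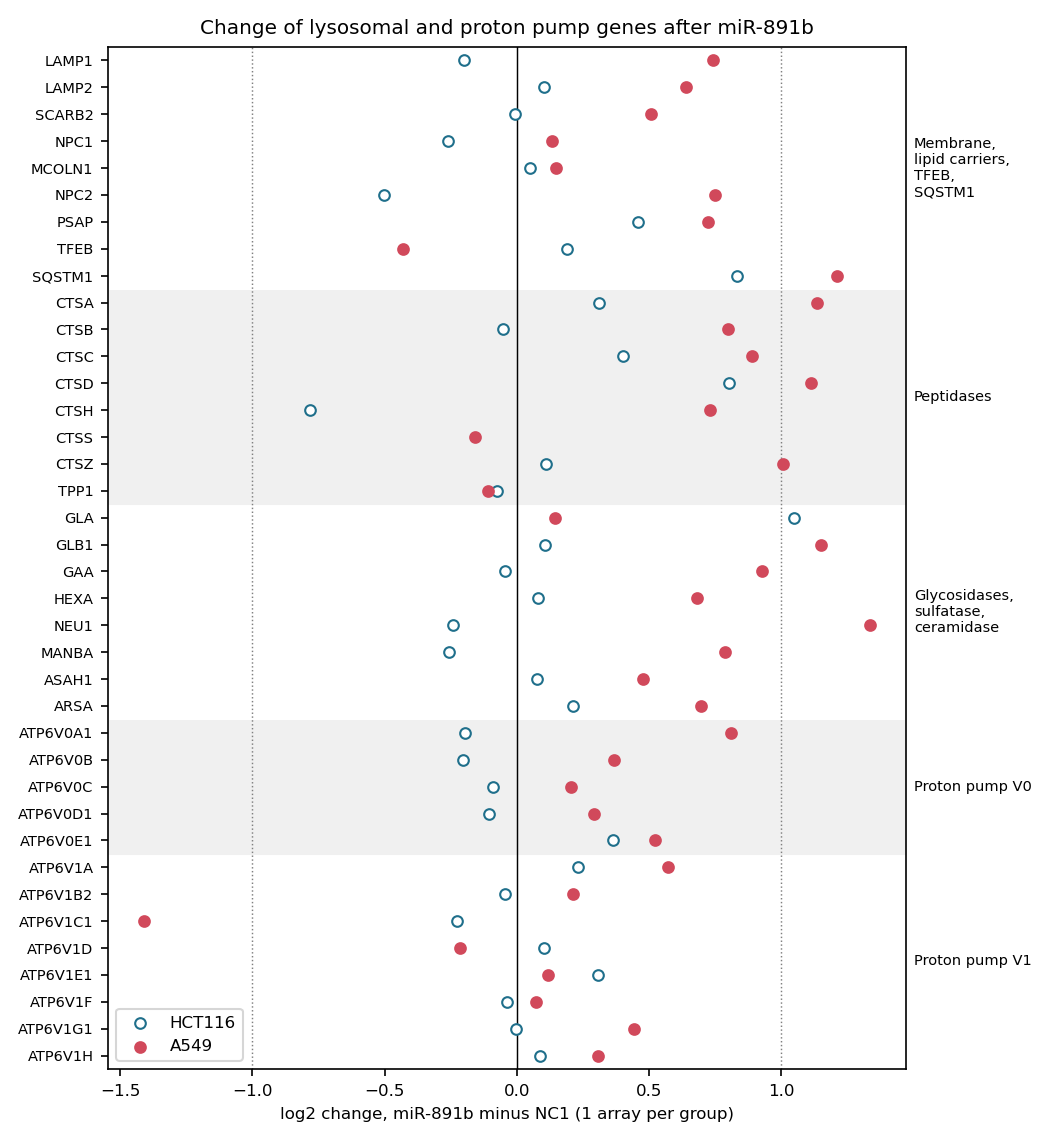
Each row is a member, grouped by role, and the horizontal axis is its log2 change (miR-891b minus NC1) from 1 array per group, with open points for HCT116 and filled points for A549. Dotted lines mark 2-fold. In A549, 33 of 38 points lie right of 0, all 8 glycosidase, sulfatase and ceramidase members and all 5 V0 members among them, while the HCT116 points lie on both sides. CTSS has no HCT116 point because its probe was not well above background there.

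**Figure D2:**
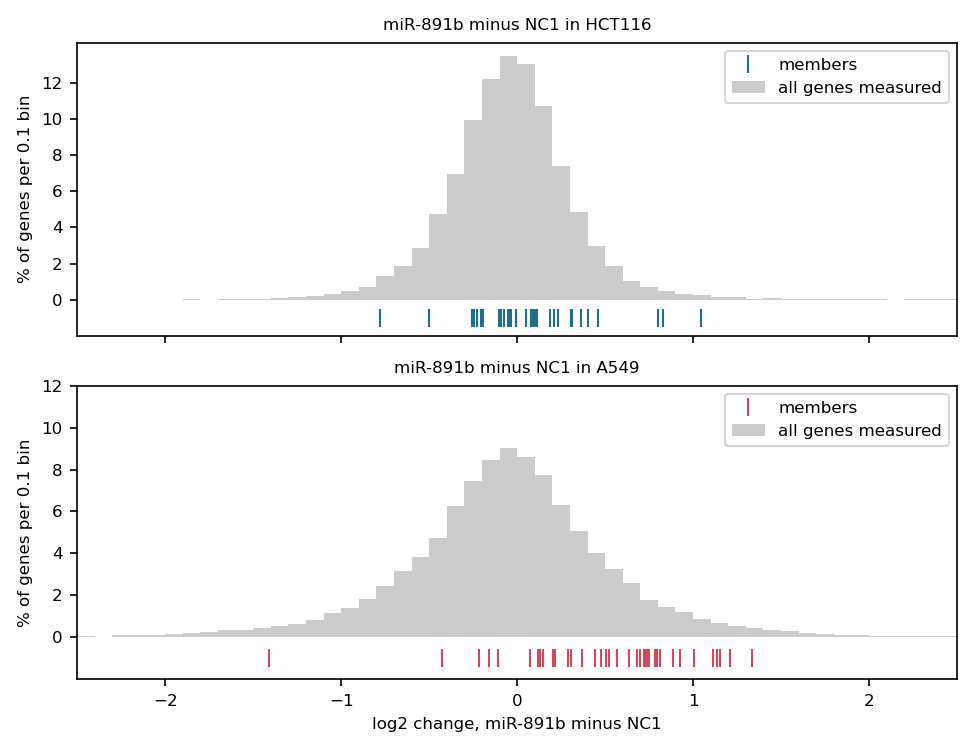
The grey bars give the percent of all genes measured per 0.1 step of log2 change, and the coloured marks under them are the members, for HCT116 (above) and A549 (below). The members' marks are centred near 0 in HCT116 (median 0.05) and to the right of the peak of all genes in A549 (median 0.55). The axis is cut at 2.5 on each side, beyond which no member lies.

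The additive model, fitted with limma over both lines and all 4 arrays with the line as a term, asks whether a gene moved the same way in both. Of 38 members entered, 0 passed an adjusted p under 0.05, and so did 0% of the 22624 genes. With 1 residual degree of freedom the smallest adjusted p was 0.788 over members and over all genes. At an unadjusted p under 0.05 the model gave 2 members (5.26%), SQSTM1 and CTSD, against 5.52% of all genes, a share near the background in the main setting. The count of members moved both up and down with the processing, as given in the closing section. With normexp the count of members rose while the count over all genes fell.

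The membrane and regulator group had a median change of 0.05 in HCT116 and 0.64 in A549 over 9 members, with 8 above 0 in A549 and 5 at 1.5-fold or more. For this and the following role groups, the shares of all genes in A549 were 46.2% above 0 and 11.5% at 1.5-fold or more higher. SQSTM1, also called p62, carries ubiquitinated cargo to autophagosomes and is itself degraded with it. Its levels were 5.15 and 5.98 in HCT116 (NC1, then miR-891b, as in all pairs of levels that follow) and 6.26 and 7.47 in A549. Both miR-891b arrays were above the NC1 array of their line, by 1.78-fold in HCT116 and 2.31-fold in A549. In the additive model its mean change was 1.02 with a standard error of 0.25 (limma, unadjusted p = 0.0130, adjusted p = 0.788). The probe lies at chr5:179263709-179263768 (hg19), in an area of stray signal on HCT116 miR-891b (a region where many spots that are dim on the other arrays are well above background), whose part in the HCT116 value was not tested.

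LAMP1, a main glycoprotein of the lysosomal membrane, had levels of 7.18 and 6.98 in HCT116 and 5.75 and 6.49 in A549. It was 1.67-fold higher with miR-891b in A549 and 0.87 times the control in HCT116, so the arrays of A549 stayed below both of HCT116. LAMP2, a related membrane protein, had levels of 2.76 and 2.86 in HCT116 and 3.81 and 4.45 in A549 on its brightest probe. Both A549 arrays were above both HCT116 arrays, and the change was 0.10 in HCT116 and 0.64 in A549. The other LAMP2 probes, which the array assigns to other transcripts of the gene, gave 0.22 and 0.73 in A549 and -0.02 and 0.50 in HCT116.

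The lipid carriers lay on opposite sides of 0 in HCT116. NPC2, the soluble protein that passes cholesterol to NPC1, had levels of 7.27 and 6.77 in HCT116 and 6.48 and 7.23 in A549. It was 0.50 lower with miR-891b in HCT116 and 0.75 higher in A549. PSAP, the precursor of the saposins that help enzymes reach sphingolipids, had levels of 4.28 and 4.74 in HCT116 and 5.14 and 5.87 in A549. It was higher with miR-891b in both lines, by 0.46 and 0.72, and a second probe gave 0.42 and 0.66. NPC1, the membrane protein that exports cholesterol, was printed on 10 spots and gave -0.26 (SD 0.06 over spots) in HCT116 and 0.13 (SD 0.10 over spots) in A549. Spots of 1 array share its RNA, so these SDs measure the spread of the array and not of the cells. On HCT116 miR-891b at least 1 of the NPC1 spots lay in an area of stray signal, whose part in the HCT116 value was not tested. Over the probes printed on at least 5 spots, the median SD of a log2 change was 0.06 in HCT116 (276 probes) and 0.07 in A549 (287 probes).

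SCARB2, the receptor that brings beta-glucocerebrosidase to lysosomes, was at -0.0066 in HCT116 and 0.51 higher with miR-891b in A549. MCOLN1, the calcium channel of the lysosomal membrane, was the dimmest member of this group, with levels of -0.92 and -0.87 in HCT116 and -2.08 and -1.94 in A549. Its changes were 0.05 and 0.15. TFEB lay on the other side of 0 from most members in A549. Its levels were 3.49 and 3.68 in HCT116 and 4.38 and 3.95 in A549, so it was lower with miR-891b in A549 by 0.43. A second TFEB probe was also below 0 in A549, at -0.12, and at -0.09 in HCT116, where the brighter probe gave 0.19. The array reads RNA and not the place of the TFEB protein in the cell.

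The peptidases had a median change of 0.84 over 8 members in A549, with 6 above 0, and 0.11 over the 7 measured in HCT116. CTSD, the main aspartic protease of lysosomes, had levels of 2.52 and 3.31 in HCT116 and 3.65 and 4.76 in A549. It was higher with miR-891b in both lines, 1.74-fold and 2.16-fold, and lower on each HCT116 array than on each A549 array. Its mean change in the additive model was 0.96 with a standard error of 0.24 (limma, unadjusted p = 0.0150, adjusted p = 0.788). Its probe lies at chr11:1774425-1774484 (hg19).

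CTSA, the serine carboxypeptidase that also protects GLB1 and NEU1 in a complex, had levels of 5.39 and 5.71 in HCT116 and 5.02 and 6.15 in A549. The A549 miR-891b array was the highest of the 4, at 2.20-fold over its control, and the HCT116 change was 0.31. A second, dimmer CTSA probe gave 0.23 and 0.60, and with the mean over probes CTSA was under 2-fold in A549, at 0.87. CTSZ, a carboxypeptidase of the papain family, had levels of 2.51 and 2.63 in HCT116 and 2.27 and 3.27 in A549. It sat at the threshold in A549, 2.01-fold, and was just under it with normexp correction (0.96) or the authors' processed values (0.99). With the mean over probes it was 0.73. CTSC, which activates granule serine proteases by removing dipeptides, had changes of 0.40 in HCT116 and 0.89 in A549, and its dimmer probes gave 0.19 and 0.91 in A549.

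CTSB, a cysteine protease abundant in many tumours, was unequal between the lines too, at -0.05 in HCT116 and 0.80 in A549. CTSH, an aminopeptidase, was past 1.5-fold in opposite directions in the lines. Its levels were 3.75 and 2.97 in HCT116 and 1.82 and 2.55 in A549. It was 0.58 times the control in HCT116 and 1.66-fold the control in A549, and the NC1 array of HCT116 was the highest of the 4. CTSS, which trims the invariant chain in antigen-presenting cells, was not well above background in HCT116. Its A549 levels were -1.97 with NC1 and -2.13 with miR-891b, and it was at least 2.98-fold higher in A549 than in HCT116 on the NC1 arrays. That bound sets the A549 level against the lowest signal called well above background on the HCT116 array. TPP1, a tripeptidyl peptidase, had levels of 4.18 and 4.10 in HCT116 and 4.41 and 4.30 in A549, with changes of -0.08 and -0.11. Its second probe gave -0.27 in HCT116 and 0.61 in A549, so the probes of TPP1 disagreed in A549.

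All 8 glycosidases, sulfatase and ceramidase members were above 0 in A549, with a median of 0.74 and 6 at 1.5-fold or more, and the median in HCT116 was 0.08. NEU1, the sialidase that trims sialic acid from glycans and is carried by CTSA, had levels of 3.87 and 3.63 in HCT116 and 3.78 and 5.12 in A549. Only the A549 miR-891b array stood apart, 2.52-fold over its control, and this was the highest A549 change of the 38 members. GLB1, the beta-galactosidase whose activity is used as a stain for senescent cells, had levels of 2.98 and 3.09 in HCT116 and 4.11 and 5.26 in A549. It was 2.22-fold higher with miR-891b in A549 and 1.07-fold in HCT116, and both A549 arrays lay above both HCT116 arrays.

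GLA, the alpha-galactosidase deficient in Fabry disease, ran the other way. Its levels were 4.65 and 5.69 in HCT116 and 6.20 and 6.34 in A549. It was 2.07-fold higher with miR-891b in HCT116 and 1.11-fold in A549, where the control was already above both HCT116 arrays. GAA, which breaks down glycogen in lysosomes, had levels of 6.39 and 6.34 in HCT116 and 5.94 and 6.86 in A549, a change of -0.05 against 0.93. HEXA, the alpha subunit of beta-hexosaminidase, had levels of 1.13 and 1.21 in HCT116 and 3.37 and 4.05 in A549. It had the largest difference between the lines among the members measured on all 4 arrays, 2.25 on the NC1 arrays, and a change of 0.68 in A549.

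MANBA, a beta-mannosidase, had levels of 1.80 and 1.54 in HCT116 and 1.26 and 2.04 in A549. Its change was -0.26 in HCT116, where its miR-891b spot lay in an area of stray signal, and 0.79 in A549. ARSA, the arylsulfatase that desulfates sulfatide, had changes of 0.21 and 0.70, and ASAH1, the acid ceramidase, 0.08 and 0.48. All 3 were higher with miR-891b in A549. The spot of ARSA on HCT116 NC1 and that of ASAH1 on A549 miR-891b also lay in such areas.

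Over the 13 proton pump subunits the median change was -0.04 in HCT116 and 0.29 in A549, with 11 above 0 in A549 and 1 at 1.5-fold or more. Over the enzymes it was 0.08 in HCT116 (15 measured) and 0.79 in A549 (16 measured), with 14 above 0 and 12 at 1.5-fold or more in A549. No test was made of this difference between the groups. Of all genes measured in A549, 46.2% were above 0 and 11.5% were 1.5-fold or more higher, so at 1.5-fold the pump did not exceed all genes. In the membrane sector V0, all 5 members were above 0 in A549 (0.21 to 0.81), and 4 of them were below 0 in HCT116. The V0 median in A549, 0.37, depended on the normalization, at 0.64 with normexp, 0.71 with quantile normalization and 0.57 with cyclic loess.

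ATP6V0A1, the subunit that lines the proton path together with the ring, had levels of 5.47 and 5.28 in HCT116 and 5.49 and 6.30 in A549. Its change of 0.81 in A549 was the highest of the 13 listed subunits. ATP6V0E1, a small membrane subunit, had levels of 4.62 and 4.98 in HCT116 and 5.35 and 5.87 in A549, and was the V0 member that was higher with miR-891b in both lines (0.36 and 0.52). ATP6V0C, the proteolipid of the rotating ring, had levels of 8.60 and 8.51 in HCT116 and 7.97 and 8.18 in A549. Its changes were -0.09 and 0.21, with the HCT116 miR-891b spot in an area of stray signal. The other proteolipid, ATP6V0B, had changes of -0.21 and 0.37, and ATP6V0D1, which couples the sectors, -0.10 and 0.29.

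In the cytosolic sector V1 the median change was 0.04 in HCT116 and 0.17 in A549. In A549, 6 of 8 were above 0, against 46.2% of all genes, and none was 1.5-fold higher, against 11.5%. The A549 median was 0.31 with quantile normalization and 0.32 with cyclic loess. ATP6V1A, the catalytic subunit that splits ATP, had levels of 5.24 and 5.47 in HCT116 and 5.29 and 5.86 in A549. It was the highest V1 member in A549, at 0.57, and its HCT116 NC1 spot lay in an area of stray signal. ATP6V1C1, a stator subunit that is lost when the sectors come apart, had levels of 4.37 and 4.14 in HCT116 and 3.46 and 2.05 in A549. The A549 miR-891b array was the lowest of the 4, at 0.38 times its control, against 0.85 times in HCT116. A second ATP6V1C1 probe had levels of 4.01 and 3.48 in HCT116 and 3.47 and 2.42 in A549, so both probes were lower in both lines, by 0.53 and 1.05 for the second.

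ATP6V1G1, a peripheral stalk subunit, had changes of -0.0044 in HCT116 and 0.44 in A549, and ATP6V1E1, of the same stalk, 0.31 and 0.12. ATP6V1D, part of the central rotor, was above 0 in HCT116 (0.10) and below it in A549 (-0.22), and ATP6V1F, also of the rotor, had -0.04 and 0.07. ATP6V1B2, the other subunit of the ATP-binding ring, had -0.05 and 0.21 with its HCT116 NC1 spot in an area of stray signal, and ATP6V1H, a regulatory subunit, 0.09 and 0.31. These 6 subunits all lay within 1.5-fold of the control in both lines.

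Spots of 8 members lay in areas of stray signal on 1 array each. Without such probes, 25 of 30 members were above 0 in A549, against 46.0% of all genes, with a median of 0.58. Further probes existed for 9 of the genes, and 10 of these 11 probes were well above background on all 4 arrays. Their median change was 0.53 in A549, with 8 above 0 and 9 of the same sign as the chosen probe, and 0.13 in HCT116. The change also varied with the level of a gene in A549. Of the 998 genes with a mean level of 6 or more in A549, 27.5% were above 0 with a median of -0.26, whereas all 7 members at that level were above 0 with a median of 0.74. Among the 2044 genes between 4 and 6 the median was -0.16, and 15 of 17 members were above 0 with a median of 0.57. In HCT116, 0 of the 5 members at a level of 6 or more were above 0, against 32.5% of 1198 genes. Their median there was -0.09, and that of all genes at that level -0.10. Between 4 and 6 in HCT116, 7 of 14 members were above 0, against 42.8% of 2172 genes.

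Across the 37 members measured on all 4 arrays, the changes in HCT116 and A549 had a Pearson r of 0.14 and a Spearman rho of 0.12. This is a description over genes that share the same 4 arrays. Of these members, 17 were above 0 in both lines, 16 were below 0 in HCT116 and above 0 in A549, 2 the reverse, and 2 below 0 in both. The 9 members with CACGTG in the promoter window had a median change of 0.74 in A549 (0.15 to 1.33) and -0.05 in HCT116. The 16 measured members with a window that lacked it had a median of 0.36 in A549 (-0.43 to 1.21) and 0.05 in HCT116, and the ranges overlapped. For the longer TCACGTGA, the A549 medians were closer, 0.59 over the 6 members with it and 0.51 over the 19 without it. The part of either motif in the changes was not tested.

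On the NC1 arrays members lay on both sides of 0. The median of A549 minus HCT116 was 0.02 over 37 members and -0.10 over all 19217 genes. At 2-fold or more, 6 members were higher in A549 (LAMP2, SQSTM1, CTSD, GLA, GLB1 and HEXA), or 16.2% against 11.1% of all genes, and 4 were lower (LAMP1, MCOLN1, CTSH and ATP6V0B), or 10.8% against 16.2%. On the miR-891b arrays the median was 0.46 over the members and -0.18 over all 18506 genes. There, 10 members were 2-fold or more higher in A549 (27.0%, against 11.6% of all genes) and 2 were lower (5.41%, against 20.1%). The miR-891b arrays give A549 minus HCT116 as the NC1 difference plus the difference of the changes, so these values are not independent of the changes above.

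**Figure D3:**
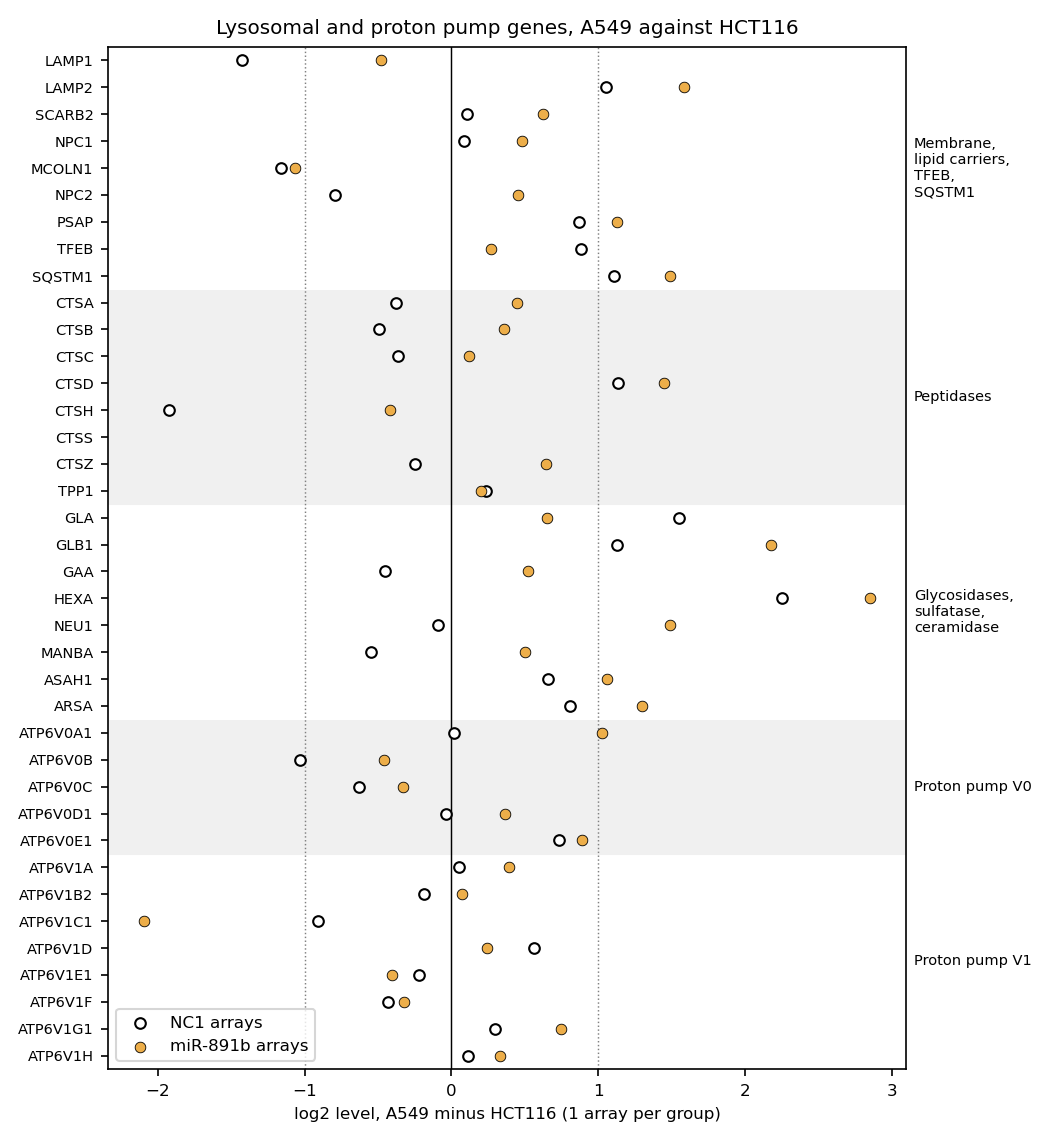
Each row is a member, grouped by role, and the horizontal axis is its log2 level in A549 minus that in HCT116, with open points for the NC1 arrays and filled points for the miR-891b arrays (1 array per group). Dotted lines mark 2-fold. HEXA is farthest to the right on both pairs of arrays (2.25 and 2.85), and CTSH is farthest to the left on the NC1 arrays (-1.93). CTSS is left out because its HCT116 probe was not well above background.

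Other lysosomal genes, from lists written by function, were read on the same arrays. Of all genes measured in A549, 46.2% were above 0, 11.5% were 1.5-fold or more higher and 4.14% were 2-fold or more higher. In HCT116, 44.5% of all genes were above 0 and 1.16% were 2-fold or more higher. Of 31 other lysosomal enzymes measured, 29 were above 0 in A549 with a median of 0.81, and 21 were at 1.5-fold or more. In HCT116, the median of 28 was 0.01, with 14 above 0 and 0 at 2-fold or more. The 8 at 2-fold or more in A549 included ACP5 (2.73), SMPD1 (1.90), SGSH (1.43), GALC (1.38), HGSNAT (1.04), NAGLU (1.34) and FUCA1 (1.23). SMPD1 is the acid sphingomyelinase, and its levels were -1.82 and -1.52 in HCT116 and -0.11 and 1.79 in A549. ACP5, the tartrate-resistant acid phosphatase known from osteoclasts, had levels of -3.67 and -0.94 in A549, so its change starts from a dim control. In HCT116 it was well above background on the miR-891b array alone, with a level of -3.475 on NC1.

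Of 16 other lysosomal membrane proteins measured in A549, 14 were above 0 with a median of 0.44, and CLCN7 (1.01) and its partner OSTM1 (1.13), which exchange chloride for protons, were past 2-fold. In HCT116 the median of 17 was -0.03. The 8 other pump subunits and accessory proteins measured in A549 had a median of 0.25, with 5 above 0, and the 7 measured in HCT116 had -0.20, with 1 above 0. Among 17 genes of mannose 6-phosphate sorting, 9 were above 0 in A549 with a median of 0.06, and the receptor IGF2R alone was past 2-fold (1.09). In HCT116 their median was -0.04. The shares of all genes in A549 were 46.2% above 0 and 4.14% at 2-fold or more higher, so the sorting genes lay near them.

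TFEB's relatives and the nutrient sensors of the lysosome had a median of 0.16 over 18 genes in A549 and 0.0041 in HCT116. In A549, 13 of the 18 were above 0, against 46.2% of all genes, and 4 were 1.5-fold or more higher, against 11.5%. In HCT116, 9 were above 0, against 44.5%. TFE3 was at 0.13 and MITF at 0.20 in A549. The Rag GTPase RRAGD (1.74) and its regulator FLCN (1.34) were past 2-fold in A549, and at -0.20 and 0.38 in HCT116. Among 24 autophagy genes the median was 0.16 in A549, where GABARAPL1 (1.46) and WIPI1 (1.10) were past 2-fold, and 0.08 over 23 in HCT116, where ATG12 was (1.13). At 2-fold or more higher, the share of all genes was 4.14% in A549 and 1.16% in HCT116.

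The cell cycle genes moved the other way from most lysosomal members in A549 and are given beside them. They were listed because an earlier account of these arrays gave them as lower in A549. In A549 each of the 15 was 2-fold or more lower after miR-891b, against 5.33% of all genes, with a median of -1.74. Since cell cycle genes were listed for that direction, the comparison with all genes carries no weight. The median in HCT116 was 0.05. The part of this difference in the lysosomal values was not tested. In RNA from whole cultures, a different share of cells in a state and a different RNA level per cell cannot be told apart.

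**Figure D4:**
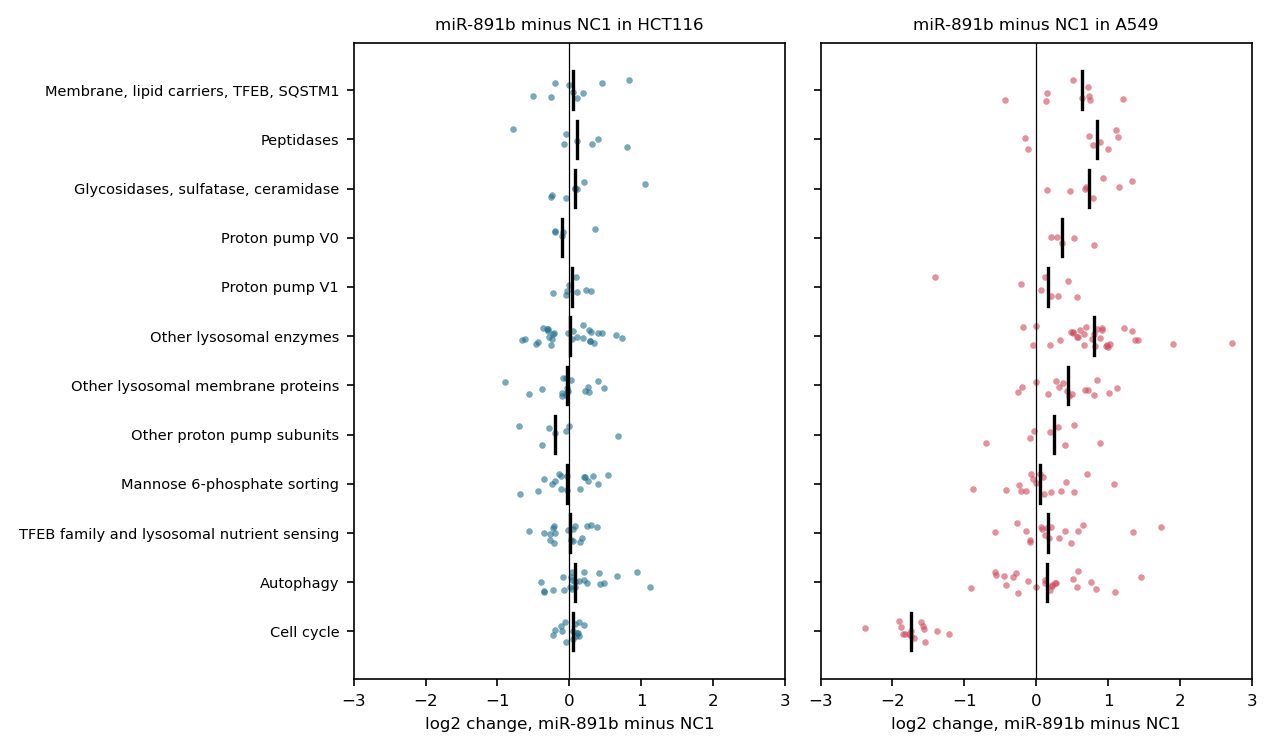
Each point is a gene's log2 change (miR-891b minus NC1), the black bars are list medians, and the panels are HCT116 (left) and A549 (right), with 1 array per group. The scatter within a row is vertical jitter. The 3 upper member groups and the other lysosomal enzymes have medians of 0.64 to 0.84 in A549 and 0.01 to 0.11 in HCT116, while the cell cycle genes have -1.74 in A549.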

How the data were processed

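Total RNA of 4 cultures (100 ng each, per the labels) was labelled with Cy3 and hybridised to Agilent 1-colour arrays. The deposited scanner files hold intensity values from Agilent Feature Extraction 11.5.1.1, per the file headers, with background and spatial trend already subtracted and no scaling between arrays. The authors' processed table holds log2 values, which equalled the main setting here to within a median of 0.0147 per array, and its making is not given in the sources used here.

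Outlier-marked spots were dropped, the spots of each probe were averaged on the log2 scale, and the 75th percentile of gene probes on each array was subtracted (processed signals of 54.9 and 57.0 in HCT116, 74.8 and 73.2 in A549). Each gene is read from its brightest probe (mean of all 4 arrays). Changes were called by size, at 2-fold or 1.5-fold. The additive model used limma 3.58.1 in R 4.3.3 on genes well above background on at least 2 arrays, with Benjamini-Hochberg adjustment, and was tested on simulated data. Other values used Python 3.11.15, numpy 2.4.6 and pandas 2.3.3. Areas of stray signal are those where, within 10 rows and columns, 10% or more of the spots that no other array shows above background are well above it. The alternatives were quantile normalization with and without normexp (offset 50), median scaling, the authors' values, other filters and thresholds, the mean over probes, leaving out stray areas, an intensity trend in limma and, added after seeing the data, cyclic loess.

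Members and lists were chosen with earlier results of these data known. Values on all 4 arrays were given for members past 2-fold in a line and for the lowest and highest mean change of each group, and LAMP1, LAMP2, NPC2, PSAP, MCOLN1, CTSH, GAA, HEXA and ATP6V0A1 were added after their values were seen. Names are those of the array design, and all 38 members are current RefSeq symbols. Probe positions are on hg19, per the file headers. Exon and untranslated region annotation was not used here. An item that the naming rule selects is not reported here.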

Additional observations from a re-analysis of the deposited data

Results flagged for a closer look

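The median of the 5 V0 members was below 0 in HCT116 (-0.10) and above 0 in A549 (0.37), a difference of 0.47 between the lines. With quantile normalization the A549 median was 0.71. The other pump subunits did the same, with -0.20 in HCT116 and 0.25 in A549, a difference of 0.45. CTSH was past 1.5-fold in opposite directions, -0.78 in HCT116 and 0.73 in A549, a difference of 1.51. These differences were not tested, since each line has 1 array per group.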

How the results depend on the processing

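Over 341 recomputed values, 149 of those on medians and counts stayed within the limits used against 31 that moved. For a median the limit was the median SD over spots (0.06 in HCT116, 0.07 in A549 and between lines). For a count it was a factor of 1.5. A change of sign was looked for only in named genes and in medians farther from 0 than that SD, and none was found. The A549 minus HCT116 median on the NC1 arrays, 0.02, was nearer to 0, and it was -0.03 without stray areas. Medians of the role groups moved 17 times, and CTSA and CTSZ were under 2-fold in 4 values. The A549 median of members, 0.55, was 0.72 with normexp, 0.79 with quantile normalization and 0.76 with cyclic loess. The members 2-fold higher there numbered 10 with quantile normalization, against 4.69% of all genes, and 10 with cyclic loess, against 5.02%. They numbered 18 at 1.5-fold, against 11.5% of all genes, and 0 at 3-fold, where ATP6V1C1 was lost too (0 lower). Relative to the median of all genes, the members' A549 median ranged from 0.54 to 0.79 over the settings. In HCT116, 3 members were higher at 1.5-fold (against 3.91% of all genes) and 0 at 3-fold, and 1 was lower at 1.5-fold (against 5.65%). Members above 0 in HCT116 numbered 25 of 37 with quantile normalization and 24 with normexp, each against 46.1% of all genes. With cyclic loess they numbered 23, against 47.8%. Relative to the median of all genes, the members' HCT116 median ranged from -0.13 with no filter on dim probes to 0.11 with quantile normalization. The A549 minus HCT116 median on the NC1 arrays was 0.15 with quantile normalization, 0.10 with median scaling and 0.17 with cyclic loess. On the miR-891b arrays it was 0.70 with normexp, 0.76, 0.55 and 0.80. On the NC1 arrays, 2 members were lower with normexp, 11 were higher and 7 lower at 1.5-fold, and 1 and 1 at 3-fold. Of all genes there, 20.1% were higher and 28.5% lower at 1.5-fold. On the miR-891b arrays, 1 was lower with normexp, median scaling or 3-fold, and 3 were higher at 3-fold. Shares of all genes at 3-fold, and of genes 2-fold lower under the other settings, are not given here, so those counts have no background. Members at an unadjusted p under 0.05 in limma's additive model numbered 6 with normexp, 5 when well above background on all 4 arrays was required, 5 with an intensity trend and 1 without stray areas. Among all genes the counts were, in the same order, 1048 of 22624, 1121 of 17996, 1404 of 22624 and 1090 of 19259. Over all genes, that model called 0 at an adjusted p under 0.05, and 18 with no filter on dim probes. The cause of these moves was not tested. No array could be left out, since the model would have no residual degree of freedom. With 1 array per group, the number of arrays limits every value.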
